A study of Rattus norvegicus with 12 samples.

Results

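The genes described here are the adenosine and ATP signaling genes Adora1, Adora2a, Adora2b, Adora3, P2rx4, P2rx7, P2ry1, P2ry2, Entpd1 and Nt5e. Members were the probes whose RefSeq accession on the array names one of these rat genes. Of the 10 genes, 9 had a probe named in this way, out of 15154 genes named on the array, and each had 1 probe, so that no other probe was at hand as a check. Adora3 had no probe named through the tables used here and was not analysed here. The measurements came from 12 one-color arrays of primary hippocampal neuronal cultures, prepared from embryos (E18 per the labels) of Wistar rats and kept for 14 to 15 days in Neurobasal medium. The OGD cultures were deprived of oxygen and glucose for 2 h in a saline in which sucrose replaced glucose, and then recovered in conditioned medium for 7 h or 24 h. The control cultures (Ctrl in the labels) spent the same period in a glucose-containing saline with air and CO2 and recovered for the same times. Each of the 4 groups had 3 independent cultures, and each of the 6 slides held a pair of arrays, control and OGD, that shared the time and the replicate number. The cultures were neuronal preparations that also held some glia, and the RNA was extracted from the whole dish.

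Cells under metabolic stress release ATP and adenosine. Extracellular ATP opens the P2X receptors, which are ion channels, and activates the P2Y receptors, which are coupled to G proteins. The ectonucleotidases CD39 (Entpd1) and CD73 (Nt5e) degrade ATP stepwise to adenosine, and adenosine acts on its own G protein-coupled receptors. In the hippocampus the A1 receptor is known for the inhibition of glutamate release and the A2a receptor for facilitating it, and adenosine released during ischemia depresses synaptic transmission.

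After OGD, Adora1, which encodes the inhibitory A1 receptor, was lower at both times, by 1.96-fold at 7 h and 1.47-fold at 24 h. P2ry2, which encodes a receptor for ATP and UTP, was higher at both times, by 2.39-fold at 7 h and 3.10-fold at 24 h. Adora2a, which encodes the A2a receptor, was 2.34-fold higher at 7 h and 1.93-fold higher at 24 h, and only the difference at 7 h passed the test. These calls, like all calls below, rest on an unadjusted p under 0.05 in limma, with 3 cultures a group. This equals a 95% interval of the log2 fold change that leaves out 0. No member passed Benjamini-Hochberg adjustment over the 30367 probes, and neither did any other probe: the lowest adjusted p of all probes was 0.117 at 7 h and 0.209 at 24 h.

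At 7 h, 3 of the 9 genes with a probe were called (2 higher, 1 lower), where 11.9% of all named genes were called, 3.89% higher and 8.06% lower. At 24 h, 2 of 9 were called (1 higher, 1 lower), where the share over all named genes was 13.3%, 6.36% higher and 6.90% lower. With a fold of at least 2 required as well, 2 members remained at 7 h (Adora2a and P2ry2, against 3.63% of all named genes) and 1 at 24 h (P2ry2, against 5.11%). The OGD and control arrays did not overlap for 2 members at 7 h (Adora2a above, Adora1 below) and for 2 at 24 h (P2ry2 above, Adora1 below). Over all named genes, 25.5% did not overlap at 7 h (7.58% above, 17.9% below) and 16.6% at 24 h (9.04% above, 7.54% below). The median log2 fold change of the 9 genes was -0.19 at 7 h, beside -0.11 over all named genes. At 24 h it was -0.0043, beside -0.03 over all named genes. Both medians include P2rx7, which was not well above background on any array. The median at 24 h was the value of Adora2b, and the next value above it was 0.53 (P2ry1). Without P2rx7 the median at 24 h would lie between these values.

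**Figure D1:**
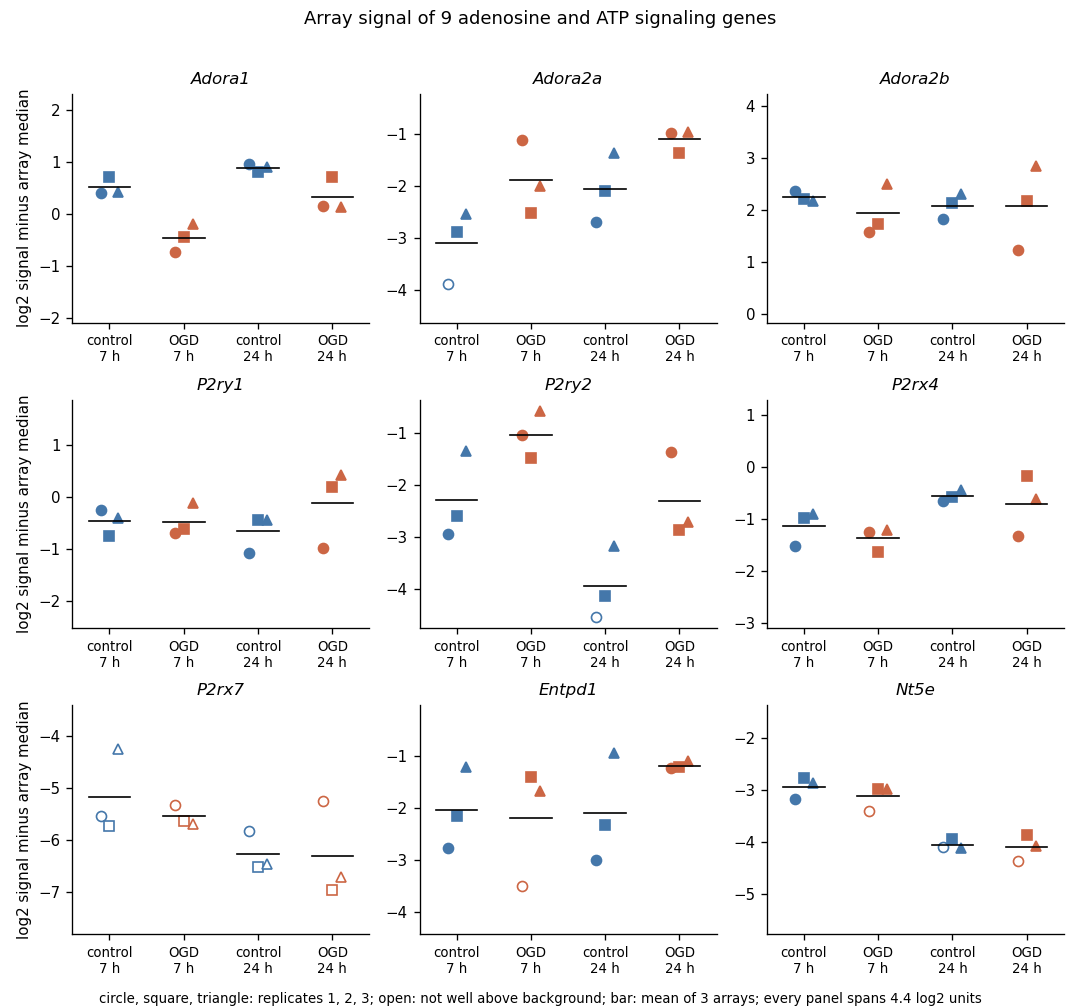
Log2 signal minus the array median of each of the 9 genes with a probe, by group, with 1 symbol per array (circle, square and triangle for replicates 1, 2 and 3, open where the probe was not well above background) and a bar at the mean of 3 arrays. Adora1 lies lower in the OGD arrays at both times, P2ry2 lies higher, and all 12 P2rx7 symbols are open. The panels span the same number of log2 units but start at different levels, and levels of different genes cannot be compared.

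The arrays themselves differed in brightness. The median intensity of the non-control spots ran from 447 to 660 in the control arrays at 7 h, from 234 to 426 in the OGD arrays at 7 h, from 402 to 477 in the control arrays at 24 h and from 131 to 546 in the OGD arrays at 24 h. The dimmest array at each time was the OGD array of replicate 1. These arrays, with OGD replicate 2 at 7 h, were scanned over 1 h before the last array of their day. This grouping by scan time was made here and is called the earlier scan session below. All arrays of a time were scanned on the same day, so that time and scan day cannot be told apart. Of 15 neuron markers with a probe, 2 were lower at 7 h and 10 at 24 h, and none was higher (13.3% and 66.7% of these markers). Beside these and the next counts, 3.89% of all named genes were higher and 8.06% lower at 7 h. At 24 h, 6.36% of all named genes were higher and 6.90% lower. Of 11 astrocyte markers, 2 were higher at 7 h and none was called at 24 h. Of 16 microglia markers, Cx3cr1 was higher at 7 h and Cd68 at 24 h, and Ptprc, which marks leukocytes, was not well above background on any array. Among 12 oligodendrocyte markers, 1 was higher and 2 lower at 7 h and 1 higher at 24 h, and among 15 vascular and fibroblast markers 3 were lower at 7 h and 2 higher at 24 h.

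Among the adenosine receptors, Adora1 gave the smallest p of the 9 genes. Levels are given as log2 signal minus the array median, for replicates 1, 2 and 3 in that order. At 7 h, the Adora1 level was 0.41, 0.72 and 0.44 in the control arrays and -0.72, -0.43 and -0.19 in the OGD arrays. Every OGD array lay below every control array, and the difference on the same slide was -1.13, -1.15 and -0.63. In limma this was a log2 fold change of -0.97 (SE 0.21, 95% interval -1.44 to -0.50, adjusted p = 0.203). At 24 h, the Adora1 level was 0.96, 0.82 and 0.91 in the control arrays and 0.16, 0.71 and 0.14 in the OGD arrays. The groups again did not overlap, but OGD replicate 2 lay close to the control arrays, and the differences by slide were -0.80, -0.11 and -0.77. The fitted log2 fold change was -0.56 (SE 0.21, 95% interval -1.03 to -0.09, adjusted p = 0.314, limma). The change at 24 h was 0.41 less negative on the log2 scale than that at 7 h, and the interval of this difference included 0 (-0.25 to 1.07, limma interaction).

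The fall of Adora1 at 7 h was called whichever array was left out, with log2 fold changes from -1.10 to -0.83. At 24 h the call was lost without control replicate 1 (-0.53), control replicate 3 (-0.55), OGD replicate 1 (-0.47) or OGD replicate 3 (-0.46) of that time. The neuron markers moved in the same direction. Their mean log2 level ran from 3.99 to 4.36 in control and from 3.53 to 4.06 in OGD arrays at 7 h, and from 4.03 to 4.59 in control and from 2.80 to 3.86 in OGD arrays at 24 h. Their median log2 fold change was -0.39 at 7 h and -0.77 at 24 h. The Adora1 change was the more negative at 7 h and the median of the markers at 24 h, and the part of the neuron markers in the Adora1 result was not tested. In RNA from whole cultures, fewer cells of a type and less RNA per cell cannot be told apart.

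Adora2a was read by 10 spots of 1 probe, whose SD within an array ran from 0.042 to 0.27 on the log2 scale. At 7 h, its level was -3.88, -2.88 and -2.54 in the control arrays and -1.11, -2.51 and -2.0 in the OGD arrays. All 3 OGD arrays lay above all 3 control arrays, though OGD replicate 2 and control replicate 3 nearly met, and control replicate 1 was not well above background. The fit gave a log2 fold change of 1.23 (SE 0.45, 95% interval 0.23 to 2.22, adjusted p = 0.342, limma). By slide the difference was 2.77 for replicate 1, against 0.37 and 0.54 for replicates 2 and 3, so that most of the mean came from 1 slide. The call at 7 h was lost without control replicate 1 (0.84), without OGD replicate 1 (0.84) and without the slides of replicate 1 (0.46). That slide held the dimmest OGD array of its time, and the part of array brightness in the result was not tested.

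At 24 h, the Adora2a level was -2.69, -2.10 and -1.35 in the control arrays and -0.97, -1.36 and -0.97 in the OGD arrays. Control replicate 3 lay within the range of the OGD arrays, and OGD was higher on all 3 slides, by 1.71, 0.74 and 0.39. The log2 fold change of 0.95 did not pass the test (SE 0.45, 95% interval -0.05 to 1.95, adjusted p = 0.387, limma). It passed without control replicate 3 of 24 h (1.29), in limma on the arrays of 24 h alone (0.95), and also without control or OGD replicate 1 of 7 h, which left the value at 0.95 and changed only the shared estimate of spread. Between the times, the Adora2a response differed by -0.28 (95% interval -1.69 to 1.13, limma interaction).

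Adora2b, which encodes a receptor of low affinity for adenosine, was well above background on all arrays. At 7 h, its level was 2.37, 2.21 and 2.18 in the control arrays and 1.59, 1.74 and 2.51 in the OGD arrays. At 24 h, it was 1.83, 2.14 and 2.30 in the control arrays and 1.23, 2.17 and 2.85 in the OGD arrays. The groups overlapped at both times, and the OGD arrays were the more widely spread, with replicate 1 the lowest and replicate 3 the highest. For Adora2b, limma gave a log2 fold change of -0.31 at 7 h (95% interval -1.14 to 0.52) and -0.0043 at 24 h (95% interval -0.84 to 0.83), so that changes of nearly 2-fold in either direction remained within the interval at 24 h.

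**Figure D2:**
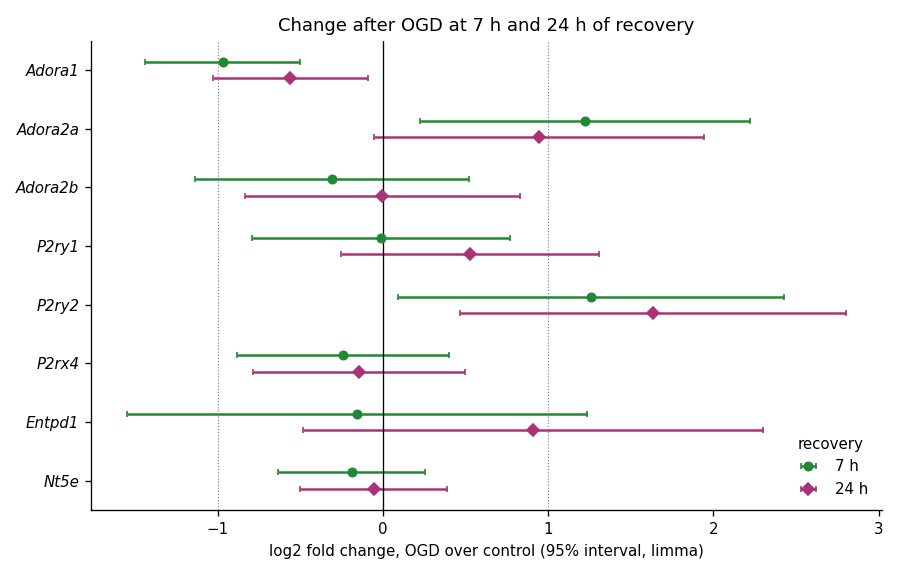
Log2 fold change of OGD over control for the 8 genes with a measurable probe, at 7 h (circles) and 24 h (diamonds), with 95% intervals from limma over 3 arrays a group and dotted lines at a fold of 2. The interval lies wholly below 0 for Adora1 at both times, wholly above 0 for P2ry2 at both times and for Adora2a at 7 h, and includes 0 for the rest.

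Of the P2Y receptors, P2ry2 differed and P2ry1 did not pass the test. At 7 h, the P2ry2 level was -2.94, -2.60 and -1.35 in the control arrays and -1.03, -1.49 and -0.58 in the OGD arrays. Control replicate 3 lay among the OGD arrays, while OGD was higher on all 3 slides, by 1.90, 1.11 and 0.76. This gave a log2 fold change of 1.26 (SE 0.53, 95% interval 0.09 to 2.43, adjusted p = 0.394, limma). At 24 h, the P2ry2 level was -4.54, -4.13 and -3.17 in the control arrays and -1.36, -2.87 and -2.71 in the OGD arrays. The groups did not overlap, OGD was higher by 3.17, 1.27 and 0.46 on the 3 slides, and control replicate 1 was not well above background. P2ry2 thus had a log2 fold change of 1.63 (SE 0.53, 95% interval 0.47 to 2.80, adjusted p = 0.290, limma). From 7 h to 24 h the response moved by 0.38 (95% interval -1.28 to 2.03, limma interaction), which did not pass the test.

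P2ry2 was called at 24 h whichever array was left out, with log2 fold changes from 1.16 to 2.02, but not without both slides of replicate 1 (0.86). At 7 h, the call was lost without control replicate 1 (0.94), control replicate 2 (1.11), OGD replicate 1 (1.26) or OGD replicate 3 (1.03). As for Adora2a, the slide of replicate 1 gave the largest of the 3 differences at each time, and it held the dimmest OGD array. With the earlier scan session as a term, Adora1 was called at both times (-0.75 at 7 h and -0.45 at 24 h on the log2 scale) and P2ry2 at 24 h (1.51), while P2ry2 (1.01) and Adora2a (1.1) were not called at 7 h. P2ry1 at 24 h (0.83) was called under that setting as well, though not without it. The control level of P2ry2 was also lower at 24 h than at 7 h, with a mean of -3.95 ± 0.70 (SD, n = 3) against -2.29 ± 0.84 (SD, n = 3). Control replicate 1 of 24 h was not well above background, and time and scan day cannot be told apart.

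**Figure D3:**
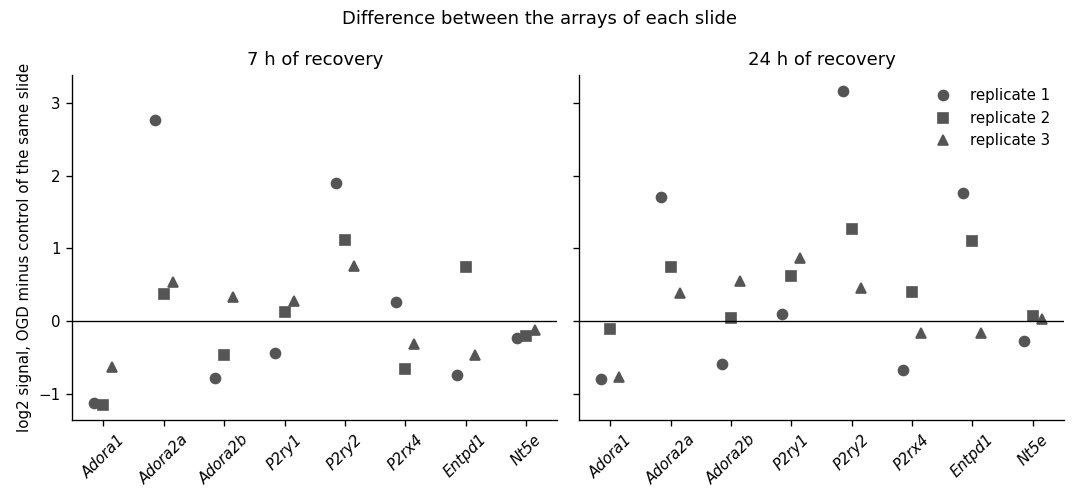
Difference in log2 signal between the OGD and the control array of each slide, for the 8 genes with a measurable probe at 7 h (left) and 24 h (right), with 1 symbol per slide. All 3 slides lie below 0 for Adora1 and above 0 for Adora2a and P2ry2 at both times, and the slide of replicate 1 lies farthest from 0 for Adora2a and P2ry2.

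The sequence before an annotated transcription start was looked at for the same genes, and 1 stretch is shown, that of P2ry2. Among the genes with a promoter entry, only the P2ry2 window held ACGTG, the form of the hypoxia response element core that was searched. Other forms of the core were not searched. RefSeq windows of 250 bases before the start (GRCr8) were given for 9 of the 10 genes, all but Adora2a. They were searched on both strands for 4 motifs, the hypoxia response element core ACGTG, the cAMP response element TGACGTCA, the AP-1 element TGANTCA and the GC box GGGCGG. In the 30 bases at chr1:164779510-164779539 on the minus strand, 5′ to 3′, capitals mark CACGTG, which holds the core on both strands, overlapping, and is also an E-box.
P2ry2: gacgcttccaggCACGTGggaccctgagag
These 6 bases lay 34 to 39 bases before the start, which itself lay 90 bases inside the outermost end of the annotated gene. The 6 bases thus lay within the span of the annotated gene. The start used lay inside the annotated gene for 5 of the 9 windows, by 995 bases for Adora1 and by 48054 for Entpd1, so that these windows need not be the promoter in use. Among 33469 promoter windows, 16.6% held ACGTG and 5.59% held CACGTG. The same P2ry2 window held 3 GC boxes, as did that of Nt5e, while those of Adora2b, P2rx7 and P2ry1 held 4, 2 and 2, and 30.5% of all windows held at least 1. An AP-1 element was found in the window of Adora3 alone, among 6.34% of all windows, and a cAMP response element in none of the 9, against 1.59% of all windows. A match describes the letters of the window and shows no binding.

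P2ry1 encodes a receptor for ADP. At 7 h, its level was -0.25, -0.75 and -0.41 in the control arrays and -0.69, -0.63 and -0.13 in the OGD arrays, a log2 fold change of -0.01 (95% interval -0.79 to 0.77, limma). At 24 h, its level was -1.08, -0.44 and -0.45 in the control arrays and -0.98, 0.18 and 0.42 in the OGD arrays. OGD replicate 1 lay among the control arrays and the other two OGD arrays lay above all of them, and OGD was higher on 3 of 3 slides. The log2 fold change was 0.53 (95% interval -0.25 to 1.31, adjusted p = 0.513, limma). It was called without OGD replicate 1, the dimmest array (0.95), without the slides of replicate 1 (0.74) and with the earlier scan session as a term (0.83).

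Of the P2X receptors, P2rx4, an ATP-gated channel that microglia also use, was well above background on all arrays. At 7 h, its level was -1.51, -0.97 and -0.89 in the control arrays and -1.25, -1.63 and -1.20 in the OGD arrays. At 24 h, it was -0.65, -0.57 and -0.44 in the control arrays and -1.32, -0.16 and -0.61 in the OGD arrays. The groups overlapped at both times, and the log2 fold change was -0.24 at 7 h (95% interval -0.88 to 0.40) and -0.15 at 24 h (95% interval -0.79 to 0.50, limma). P2rx7, the channel that couples high extracellular ATP to interleukin release, was read by 10 spots of 1 probe, and none of them was well above background on any of the 12 arrays. No fold is therefore given for P2rx7. Beside these genes, the mean log2 level of the 16 microglia markers ran from -0.98 to -0.80 in control and from -1.0 to -0.37 in OGD arrays at 7 h, and from -0.95 to -0.76 in control and from -1.0 to -0.23 in OGD arrays at 24 h.

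Neither ectonucleotidase passed the test. At 7 h, the level of Entpd1, which removes phosphates from ATP and ADP, was -2.76, -2.15 and -1.20 in the control arrays and -3.50, -1.41 and -1.67 in the OGD arrays, a log2 fold change of -0.16 (95% interval -1.55 to 1.24, limma). At 24 h, it was -3.0, -2.33 and -0.94 in the control arrays and -1.24, -1.22 and -1.10 in the OGD arrays. The OGD arrays lay close together (SD 0.073), the control arrays spread widely (SD 1.05), and control replicate 3 lay above all of the OGD arrays. The log2 fold change at 24 h was 0.91 (95% interval -0.49 to 2.30, adjusted p = 0.527, limma), and without control replicate 3 it was 1.48 and was called.

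Nt5e, which forms adenosine from AMP, was well above background on 9 of 12 arrays. At 7 h, its level was -3.16, -2.77 and -2.86 in the control arrays and -3.40, -2.98 and -2.98 in the OGD arrays. At 24 h, it was -4.10, -3.93 and -4.11 in the control arrays and -4.36, -3.86 and -4.08 in the OGD arrays. The log2 fold change was -0.19 at 7 h (95% interval -0.63 to 0.26) and -0.05 at 24 h (95% interval -0.50 to 0.39, limma). With normexp background correction the values were 0.66 and 0.45, outside these intervals and not called. The mean control level of Nt5e, like that of P2ry2, was lower at 24 h (-4.05 ± 0.10, SD, n = 3) than at 7 h (-2.93 ± 0.21, SD, n = 3). The signal of P2rx7, which was not well above background on any array, was lower as well. Its control mean was -6.27 at 24 h and -5.18 at 7 h. Time and scan day cannot be told apart, and the difference between the control times was not tested.

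None of the 9 genes had a response that differed between 24 h and 7 h at an unadjusted p under 0.05 (limma interaction), where 3.42% of all named genes did, and no probe passed adjustment. The largest difference was that of Entpd1, 1.06 on the log2 scale (95% interval -0.91 to 3.03).

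The other genes of the pathway were taken from 6 lists with 84 genes, of which 76 had a probe. At 7 h, 10 of them (13.2%) were called, 4 higher and 6 lower, and at 24 h 15 (19.7%) were called, 9 higher and 6 lower, where 11.9% and 13.3% of all named genes were. Their median log2 fold change was -0.12 at 7 h and 0.0032 at 24 h. None passed adjustment in limma, and the adjusted p of the genes named next ran from 0.124 upward.

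Alpl gave the smallest p of these genes. Of 13 ectonucleotidases and nucleotidases with a probe, 1 was higher at 7 h and 3 at 24 h, and none was lower. Alpl, the tissue-nonspecific alkaline phosphatase, which dephosphorylates AMP among other substrates, ran from -0.43 to -0.38 in control and from 1.38 to 1.74 in OGD arrays at 7 h, and from -2.47 to -1.71 in control and from -1.53 to -0.33 in OGD arrays at 24 h. The groups did not overlap at either time. The log2 fold change of Alpl was 1.94 at 7 h (SE 0.31, adjusted p = 0.124) and 0.96 at 24 h (SE 0.31, adjusted p = 0.290, limma). Enpp1, which splits ATP to AMP and pyrophosphate, gave log2 fold changes of 0.56 at 7 h (95% interval -0.34 to 1.46) and 1.25 at 24 h (0.36 to 2.15). Enpp3, an ectoenzyme of the same family, gave 0.11 (95% interval -0.73 to 0.96) and 1.03 (0.19 to 1.88). By slide, for replicates 1, 2 and 3, the difference at 24 h was 2.24, 0.83 and 0.69 for Enpp1. It was 1.94, 0.44 and 0.72 for Enpp3, and 0.95, 0.30 and 1.65 for Alpl. The slide of replicate 1, with the dimmest OGD array, thus gave the largest difference for Enpp1 and Enpp3, though not for Alpl.

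Of 15 genes that carry or convert adenosine, none was higher and 2 were lower at 7 h, and 3 were higher and 1 lower at 24 h. Slc29a1, an equilibrative nucleoside transporter, ran from -0.12 to 0.05 in control and from -0.33 to 0.16 in OGD arrays at 7 h. At 24 h, Slc29a1 ran from -0.26 to 0.40 in control and from 0.68 to 1.49 in OGD arrays. Its log2 fold change was 0.03 at 7 h (95% interval -0.54 to 0.60) and 1.03 at 24 h (0.46 to 1.59), with an adjusted p of 0.254 at 24 h in limma. By slide, the Slc29a1 difference at 24 h was 1.75, 0.81 and 0.52 for replicates 1, 2 and 3. The other transporters of its family, Slc29a2, Slc29a3 and Slc29a4, gave log2 fold changes of -0.22, 0.24 and -0.63 at 24 h. They were not called at either time. Of the AMP deaminases, which convert AMP to IMP, Ampd1 gave 0.04 and -0.07 on the log2 scale at 7 h and 24 h and was not called. Ampd2 had log2 fold changes of -1.05 at 7 h (95% interval -1.63 to -0.47) and -0.61 at 24 h (-1.20 to -0.03), without overlap at either time. Ampd3 had log2 fold changes of 0.82 at 7 h (95% interval -0.34 to 1.97) and 1.56 at 24 h (0.41 to 2.72), without overlap at 24 h. By slide, the Ampd3 difference at 24 h was 3.19, 0.63 and 0.87. As for Slc29a1, the largest came from replicate 1, whose slide held the dimmest OGD array. The part of array brightness in these results was not tested. Dpp4, a peptidase of the cell surface that binds adenosine deaminase in humans, was not well above background on any OGD array at 7 h. Only a bound can therefore be given for Dpp4, at least about 1.5-fold lower (adjusted p = 0.302, limma). The other probe of Dpp4 gave -0.08 on the log2 scale at 7 h and was not called.

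In the remaining lists, P2ry14, a receptor for UDP-glucose, had no control array well above background at 7 h. Its mean was at least about 1.51-fold higher after OGD (adjusted p = 0.352, limma). The groups overlapped, and 2 of the 3 OGD arrays were well above background. By slide, the P2ry14 difference at 7 h was 3.57, 0.96 and 1.02 for replicates 1, 2 and 3. P2ry14 was 1 of 12 other P2X and P2Y receptors with a probe, of which 1 was higher and 1 lower at 7 h and none was called at 24 h. Casp1, the inflammatory caspase, was at least 2.33-fold higher at 24 h (adjusted p = 0.359, limma), with no control array of that time well above background, and was the only 1 of 6 P2X7 inflammasome genes called at either time. Of 10 genes for ATP release, which include pannexins and connexins, 1 was higher and 2 were lower at each time, all by less than 2-fold. Of 20 genes that couple these receptors to adenylyl cyclase, phospholipase C and potassium channels, 1 was higher and 1 lower at 7 h, and 1 was higher and 3 lower at 24 h. Adcy3, an adenylyl cyclase, had the smallest p among these, with log2 fold changes of -1.16 at 7 h (SE 0.33, adjusted p = 0.270) and -1.09 at 24 h (SE 0.33, adjusted p = 0.275, limma), without overlap at either time.

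**Figure D4:**
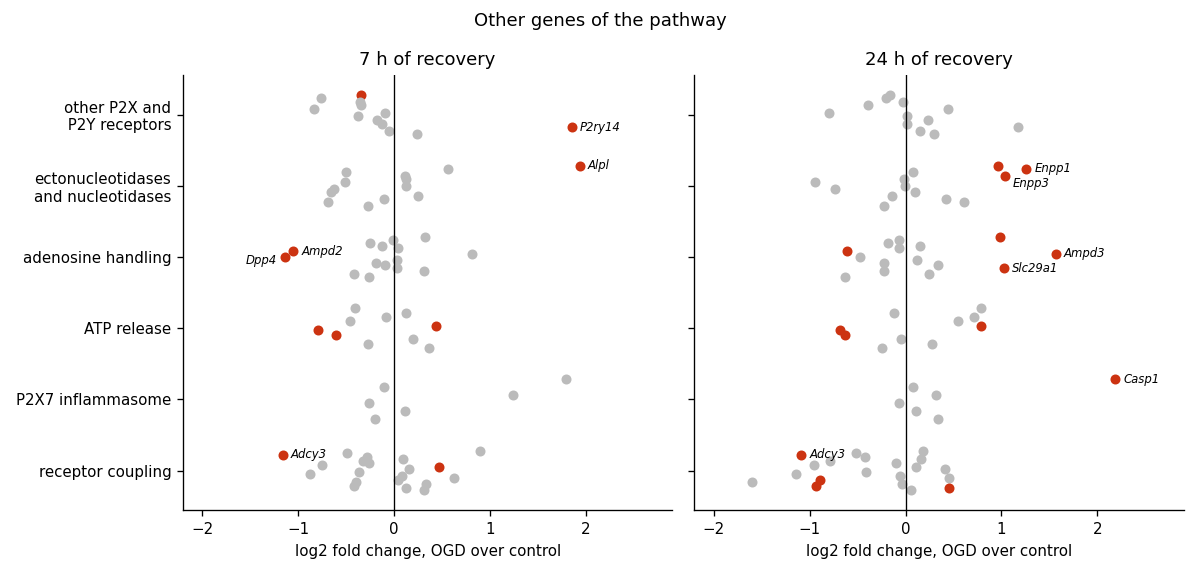
Log2 fold change of OGD over control at 7 h (left) and 24 h (right) for the 76 other genes of the pathway with a probe, in 6 lists, 1 point per gene, red where the unadjusted p was under 0.05 in limma and named where the fold was also at least 2. The ectonucleotidases have red points on the right of 0 at both times, and Adcy3 lies left of -1 at both.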

How the data were processed

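Per the labels and the study's methods, 12 samples (4 groups, 3 cultures each) were hybridized singly to Agilent Rat GE 4x44K v3 arrays, labeled with Cy3. The authors obtained the deposited intensity values with Feature Extraction 10.5.1.1, which subtracts background without normalization between arrays. They also deposited log2 values centered on the array median, equal to those computed here apart from 1 constant an array for at least 99.997% of probes (within 0.01). The Feature Extraction flags, deposited as other values, marked spots as controls, outliers, saturated or well above background. No per-sample column was left out.

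Here, after outlier spots had been dropped, a probe's log2 value was the mean over its spots, less the median over all probes of that array that are not controls (30367 probes, 70 of 364404 values missing, no filter on dim probes). Array accessions were matched without versions to RefSeq (GRCr8 tables), which named 18004 probes and 15154 symbols and left 12363 unnamed. The probe with the highest mean signal stood for a gene. The groups were fitted in 1 model with limma 3.58.1 in R 4.3.3, two-sided, with Benjamini-Hochberg adjustment over all probes. The fits, without the adjustment, were also run on simulated arrays with independent noise and known changes. A call is an unadjusted p under 0.05, with a fold of 2 given beside it as in the methods. A probe well above background on none of the 3 arrays of a group has only a bound there: the mean of the brighter group over the dim group's mean of, per array, the higher of its own signal and the lowest signal well above background. The bound takes no account of the spread between arrays. The number of arrays limits the precision. P-values rest on the spread between arrays within a group, pooled over the 4 groups. Culture, hybridization and scan cannot be told apart in that spread.

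The members and lists were chosen with earlier results of these data known. Named were all members and, from each pathway list, up to 4 genes at p under 0.05 and a fold of at least 2 at either time, by the smaller p. Alternatives covered scaling, background, filters, probe choice, the methods' t-test, slide and scan day, and each array left out. The scan session and the slides of replicate 1 were added after the data were seen. For the normexp alternative the median spot signal was used.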

Additional observations from a re-analysis of the deposited data

Results flagged for a closer look

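The responses of Alpl and Slc29a1 differed between the times at an unadjusted p under 0.05 (limma interaction). The log2 fold change of Alpl at 24 h minus that at 7 h was -0.97 (95% interval -1.94 to -0.0015), and that of Slc29a1 was 1.00 (SE 0.36). Neither passed adjustment in limma, and 3.42% of all named genes differed in this way.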

How the results depend on the processing

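The fall of Adora1 at 7 h was called in 12 of the 13 alternatives other than leaving out 1 array that could change it (exception: scaling to the spike-in probe, -1.78), and its direction held in all of them at both times. Members called at 7 h and 24 h (3 and 2) numbered 0 and 0 after scaling to the spike-in, 1 and 1 by the methods' t-test and 1 and 1 without the slides of replicate 1, where the 1 at 24 h was P2ry1 (0.74) and neither Adora1 nor P2ry2. With the earlier scan session as a term 1 was called at 7 h and 3 at 24 h, with P2ry1 gained. In limma on each time alone, Adora2a was gained at 24 h (0.95). At 24 h 1 was called with the 75th percentile and 0 with normexp. Adora1 at 24 h was not called with the 75th percentile (-0.45), the spike-in (-1.58), normexp (-0.53), limma on each time alone (-0.56) or without the slides of replicate 1 (-0.44). Adora2a at 7 h was not called with the spike-in (0.42) or by the t-test (1.23). P2ry2 was not called with the spike-in (0.45 at 7 h, 0.61 at 24 h), normexp (0.81 and 0.69) or the t-test (1.26 and 1.63), nor without the slides of replicate 1 (0.94 and 0.86), nor at 7 h with the 75th percentile (1.37). Pathway genes called (10 and 15) numbered 0 and 1 with the spike-in, 6 at 7 h with the scan session, and at 24 h 6 by the t-test and 5 without the slides of replicate 1. None of these 5 had a fold of at least 2. The t-test called 4698 and 1923 probes, 808 and 634 of them with a fold of 2, and 1 and 0 after adjustment. Only 1 of 10 spike-ins was usable, and it moved the median of all probes to -0.86 at 7 h and -1.01 at 24 h, from -0.06 and 0.01.

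With 1 array left out, members called ranged from 1 to 3 at each time and from 0 to 1 for the difference between times, and pathway genes from 6 to 16 at 7 h and from 8 to 27 at 24 h. Members at 7 h came to 1 without control or OGD replicate 1 of 7 h. Members at 24 h came to 1 without control replicate 1 or OGD replicate 3 of 24 h, and to 3 without control replicate 3 of 24 h or without control or OGD replicate 1 of 7 h. The difference between times was called for 1 member without OGD replicate 1 of 24 h. Pathway genes at 7 h came to 6 without control or OGD replicate 1 of 7 h and to 16 without OGD replicate 1 of 24 h, and at 24 h to 8 and 9 without control replicates 1 and 2 and to 27 without OGD replicate 3 of 24 h.

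Slides as a replicate block changed no member call: with a fixed block 3 and 2 members and 8 and 12 pathway genes were called, and with a random block 3 and 2 members and 10 and 16 pathway genes. Deviations from the group means on the same slide correlated at -0.05, 0.11 and -0.01 at 7 h and 0.08, 0.17 and -0.01 at 24 h, so that the numbers were not taken to pair the arrays. Scan day is the same as time, so that it cannot change the fit as a block, and the mean over a gene's probes cannot change members with 1 probe.

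Directions turned only for members at a time at which they were not called, and the cause was not tested. Adora2b turned at 24 h with the 75th percentile (0.11), quantile normalization (0.054) and the authors' values (0.00103), with the scan session at 7 h (0.40) and 24 h (0.35), and without the slides of replicate 1 at 24 h (0.29). P2ry1 turned at 7 h with the 75th percentile (0.10), normexp (0.029), the authors' values (0.012), the scan session (0.59) and without the slides of replicate 1 (0.20), and at 24 h with the spike-in (-0.50). P2rx4 turned with normexp (0.13 and 0.11 at 7 h and 24 h), with the scan session (0.15 and 0.050) and without the slides of replicate 1 at 24 h (0.12). Entpd1 turned at 7 h with normexp (0.51), the scan session (0.13) and without the slides of replicate 1 (0.14), and at 24 h with the spike-in (-0.12). Nt5e turned with normexp (0.66 and 0.45), the scan session (0.011 and 0.045), and at 24 h with the 75th percentile (0.058) and without the slides of replicate 1 (0.052). Adora2a turned at 24 h with the spike-in (-0.078). With 1 array left out, values ranged from -0.39 to 0.42 for Adora2b at 24 h, from -0.41 to 0.17 for P2rx4 at 24 h, from -0.19 to 0.10 for P2ry1 at 7 h, from -0.55 to 0.50 for Entpd1 at 7 h and from -0.17 to 0.077 for Nt5e at 24 h.

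The limits are 3 arrays a group and 1 probe a gene. P2rx7 and some arrays of Adora2a, P2ry2, Entpd1 and Nt5e were near background.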
